A study of Mus musculus with 12 samples.

Results

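The genes described here are 10 mouse genes of mucin-type O-glycosylation, 9 polypeptide GalNAc transferases (Galnt1, Galnt2, Galnt3, Galnt4, Galnt6, Galnt7, Galnt10, Galnt11 and Galnt12) and C1galt1, the core 1 enzyme. They were 10 of 49943 genes with a position on the chromosomes used, and 10 of 21887 protein-coding genes. They were chosen by name, with Galnt6 as the gene that had a broad H3K4me3 region in Ctrl and no peak after either treatment. The values that chose Galnt6 are its covered base pairs (bp) in the Ctrl, SR2 and THC H3K4me3 libraries, so its pattern is given as a description with no test.

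CUT&Tag libraries, in which an antibody guides a transposase to cut DNA beside a histone mark, were made from tumour organoids of the PyMT mouse model, in which a viral oncogene drives mammary tumours. The 12 libraries covered H3K4me3, which sits at promoters in use, and H3K27me3, which Polycomb complexes lay down on silent genes, with 2 replicates each of THC-treated, SR2-treated and Ctrl organoids. All groups carried the genotype label WT and were sampled 3 days after treatment. The series title names modulation of the cannabinoid receptor CB2R and luminal plasticity of the tumour cells. THC is a cannabinoid, and the meaning of SR2, the doses, the vehicle, the promoter behind the oncogene and the number of animals behind the organoids are not given in the labels. Nothing there says that replicates were separate cultures, so each p-value reflects only how far these samples differ among themselves, which may be technical.

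Mucin-type O-glycosylation starts in the Golgi when a GALNT enzyme attaches GalNAc to serine or threonine of a protein. C1GALT1, folded with the help of the chaperone COSMC (gene C1galt1c1), then adds galactose to form core 1, which other enzymes branch or cap with sialic acid. In mammary epithelium the best known acceptor is the mucin MUC1, and truncated O-glycans are a familiar feature of breast carcinoma.

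Since Ctrl values were known when the genes were chosen, their marking in Ctrl is a description of the list. All 10 genes were marked by H3K4me3 in both Ctrl libraries, less than 1 kb from a start, and 8 of them were marked in all 6 libraries. The exceptions were Galnt6, with peaks in the Ctrl libraries alone, and Galnt12, with peaks in the SR2 and Ctrl libraries and none in THC. None of the 10 had a peak in both THC or both SR2 libraries that was missing from both Ctrl libraries, a pattern shown by 0.108% of regions for THC and 0.255% for SR2. The label fits the data to the extent that all members are GALNT or core 1 enzyme genes by their annotation. A peak list does not measure transcript or enzyme.

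The promoter sequences below set the start that lost its peak beside a start of the same gene that was never marked, and beside a start with a broad and a start with a narrow region in every library. Each runs 5′ to 3′ on the gene's strand, from 250 bases before the start to 50 bases after it, and comes from the RefSeq promoter table of GRCm38.p6. CG dinucleotides are in capitals. The window at the Galnt6 start next to the Ctrl peaks lies at chr15:100729327-100729626 (minus strand); the Ctrl replicate 1 peak reaches into it, and the Ctrl replicate 2 peak begins 70 bp after the start, beyond its end. The window of the other annotated Galnt6 start, with no peak in any library, lies at chr15:100720428-100720727 (minus strand). The Galnt3 window is chr2:66124744-66125043 (minus strand) and the Galnt11 window chr5:25222622-25222921 (plus strand).
Galnt6, marked start: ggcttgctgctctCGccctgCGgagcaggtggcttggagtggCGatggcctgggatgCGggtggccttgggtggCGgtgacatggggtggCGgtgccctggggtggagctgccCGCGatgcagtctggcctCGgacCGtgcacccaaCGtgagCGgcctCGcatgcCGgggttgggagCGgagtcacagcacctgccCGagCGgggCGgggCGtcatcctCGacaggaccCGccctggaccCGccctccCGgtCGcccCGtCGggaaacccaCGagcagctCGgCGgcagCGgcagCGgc
Galnt6, unmarked start: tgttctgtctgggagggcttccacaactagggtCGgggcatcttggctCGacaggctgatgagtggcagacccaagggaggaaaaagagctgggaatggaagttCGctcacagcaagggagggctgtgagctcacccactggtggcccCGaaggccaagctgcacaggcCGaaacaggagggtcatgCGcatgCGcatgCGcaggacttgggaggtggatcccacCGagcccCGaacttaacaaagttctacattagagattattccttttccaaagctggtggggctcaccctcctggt
Galnt3: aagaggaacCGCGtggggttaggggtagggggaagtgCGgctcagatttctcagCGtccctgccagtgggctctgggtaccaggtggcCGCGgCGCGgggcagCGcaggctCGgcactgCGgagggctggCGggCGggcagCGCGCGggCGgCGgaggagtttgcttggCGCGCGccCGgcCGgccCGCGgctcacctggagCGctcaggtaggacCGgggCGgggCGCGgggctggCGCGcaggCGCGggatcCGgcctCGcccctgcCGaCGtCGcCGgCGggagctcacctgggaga
Galnt11: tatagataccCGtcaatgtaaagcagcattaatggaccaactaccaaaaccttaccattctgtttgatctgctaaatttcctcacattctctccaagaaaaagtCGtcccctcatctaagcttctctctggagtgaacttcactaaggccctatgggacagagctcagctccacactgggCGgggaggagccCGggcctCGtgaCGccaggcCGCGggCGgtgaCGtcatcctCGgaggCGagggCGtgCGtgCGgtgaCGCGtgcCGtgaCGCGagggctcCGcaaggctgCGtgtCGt

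The marked Galnt6 window held 31 CG dinucleotides and 73.7% G + C, and its CG count stood at percentile 87.4 of 21263 promoters of protein-coding genes. The unmarked Galnt6 window held 10, at 57.7% G + C and percentile 45.3. Galnt3 held 41 and Galnt11 held 23, at 76.7% and 57.0% G + C. The marked Galnt6 window thus held more CG dinucleotides than the Galnt11 window, which had a peak in all 6 libraries. Over all such promoters the median CG count was 24 where a peak lay in all 6 libraries (8798 promoters), 16 where peaks lay in both Ctrl libraries alone (167 promoters) and 3 where no library had a peak (9769 promoters). These classes count peaks inside the window, so the marked Galnt6 window, with a peak in 1 library, is not among the 167.

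RefSeq promoters were held for 6 of the 10 genes, as 8 windows. C1galt1 had the highest count of the 8, with 52 CG dinucleotides at 82.7% G + C and percentile 99.4. Galnt7 held 25 and Galnt10 held 28. An unmarked downstream start of Galnt11 held 7, the lowest of the 8. The GC box letters GGGCGG, searched on both strands, were in 5 of the 8 windows (Galnt3, the marked Galnt6 start, Galnt7, the marked Galnt11 start and C1galt1), against 46.2% of all windows. The letters TATAAA and CCAAT, also on both strands, were in none of the 8, against 12.6% and 38.2% of all windows. These matches describe the letters in the windows.

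Galnt6 encodes a GalNAc transferase that is expressed in mammary epithelium and known from breast cancer. Its gene lies at chr15:100689915-100729376 on the minus strand of mm10, and its H3K4me3 region at chr15:100727993-100729499, over the annotated start and the beginning of the gene. Peaks covered 0 and 0 bp in the THC libraries, 0 and 0 bp in the SR2 libraries, and 1455 and 1314 bp in the Ctrl libraries (replicates 1 and 2), a Ctrl mean of 1384.5 ± 99.7 bp (SD, n = 2). The groups did not overlap, and no treated library had a peak. In Ctrl replicate 1 the peak ran from −123 to 1331 bp relative to the start, and in Ctrl replicate 2 from 70 to 1383 bp.

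**Figure D1:**
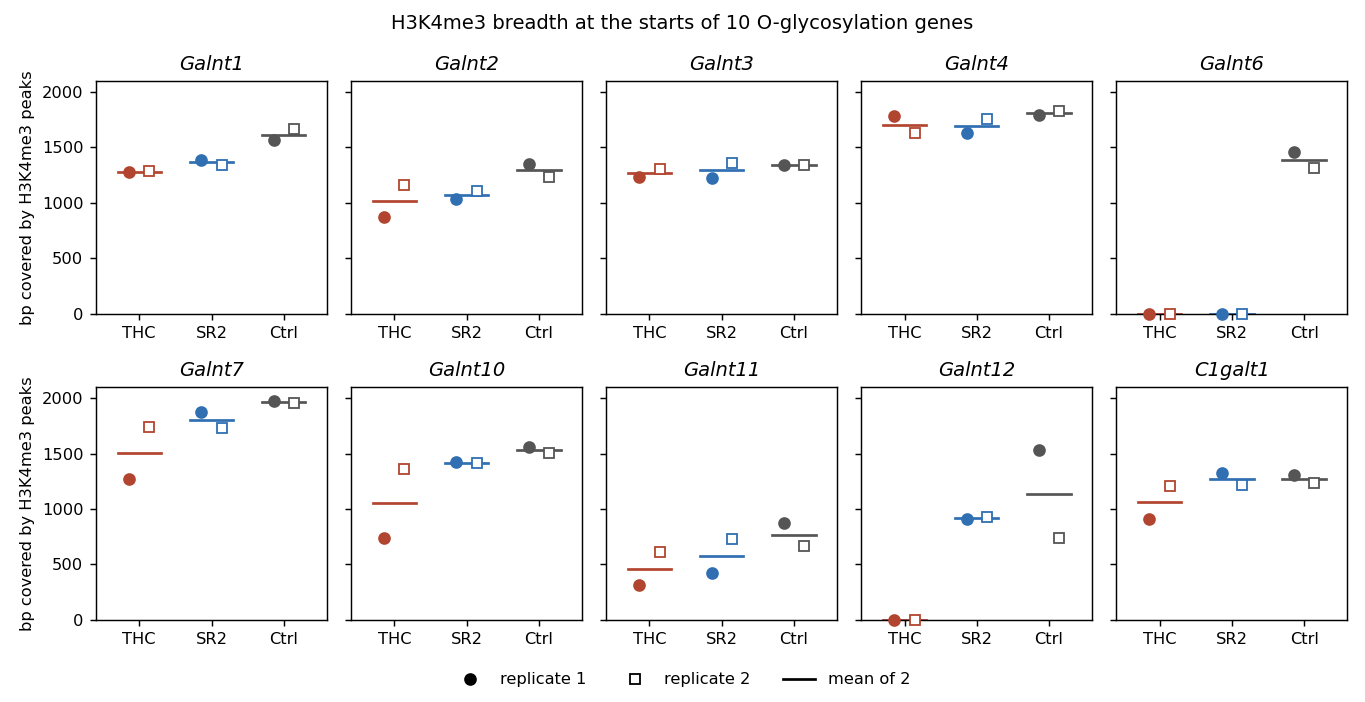
Base pairs covered by H3K4me3 peaks (y axis, bp) in the region at each gene's start, by library in THC, SR2 and Ctrl, with replicate 1 as circles, replicate 2 as open squares and lines at the mean of 2. Galnt6 is at 0 bp in all 4 treated libraries and at 1455 and 1314 bp in Ctrl, and Galnt12 is at 0 bp in both THC libraries.

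Few starts marked in Ctrl had no peak after a treatment. Of 10622 regions at protein-coding starts marked in both Ctrl libraries, 637 (6%) had no peak in either THC library and 181 (1.7%) had none in either SR2 library. Among the 10 genes these counts were 2 for THC (Galnt6 and Galnt12) and 1 for SR2 (Galnt6), and the rule fixed Galnt6 in both. Over all regions the shares were 17.5% for THC (2555 of 14612) and 7.84% for SR2 (1146 of 14612). The THC and SR2 comparisons share the Ctrl libraries, so the counts for the treatments are not independent.

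Galnt6 was the broadest in Ctrl of the 151 regions at protein-coding starts marked in both Ctrl libraries and in no THC or SR2 library. Their median Ctrl breadth was 484 bp. The rule named Galnt6 for its broad Ctrl region, so this rank is a description. Of the control-only regions at protein-coding starts for THC alone, 4 were broader in Ctrl than Galnt6, and for SR2 alone none was.

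The Galnt6 peak was wide but low. The authors' fold enrichment was 4.51 and 4.94 and their −log10 q was 6.41 and 6.54 in Ctrl replicates 1 and 2. The summit pileup, the number of fragments stacked at the highest point of the peak as recovered from the deposited values, was 18 and 16 over a local background of 3.22 and 2.44. By −log10 q the peak stood at percentiles 23.7 and 22.1 of its library's peaks, whereas by breadth its region stood at percentiles 80.3 and 74.5. Of the 2524 and 2439 Ctrl peaks whose width was within 10% of its own, 11 (0.44%) and 10 (0.41%) had a −log10 q as low or lower. Peaks of that width had a median summit pileup of 142 and 103.

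**Figure D2:**
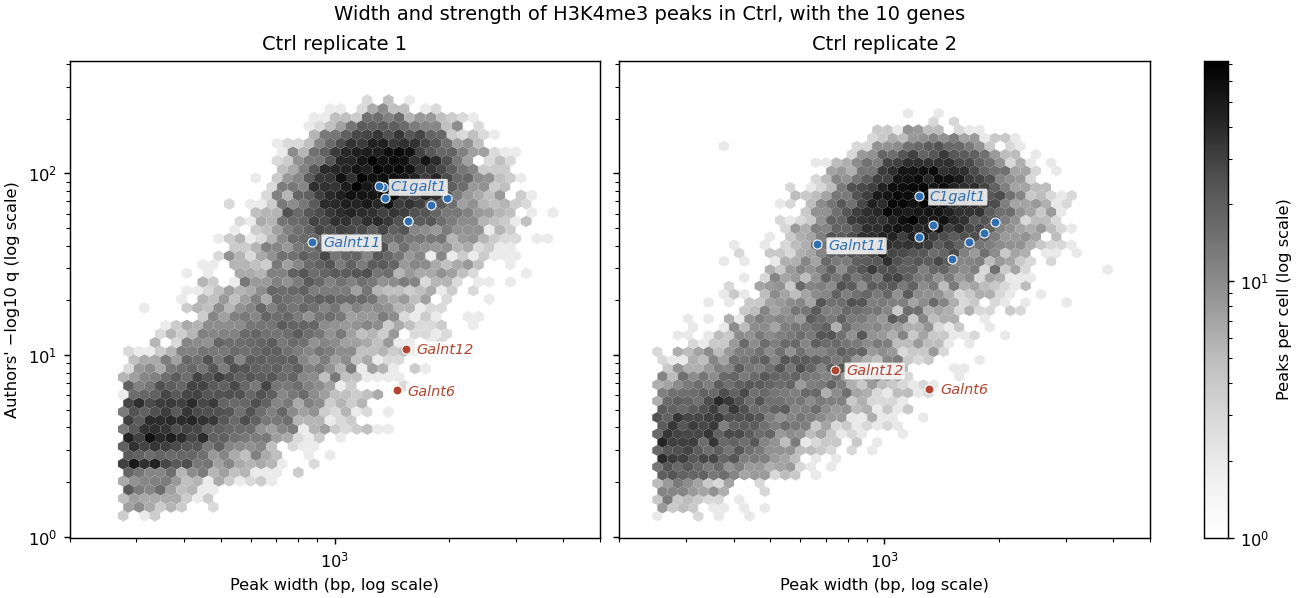
Width (x axis, bp, log scale) and authors' −log10 q (y axis, log scale) of all H3K4me3 peaks in each Ctrl library, shaded by the number of peaks, with the 10 genes as points. Galnt6 lies at the low edge for its width in both libraries (−log10 q 6.41 and 6.54), below the dark cloud that holds most of the other genes.

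The treated H3K4me3 lists were also shallower at regions that every library marked. Over the 10140 regions marked in all 6 libraries the median summit pileup was 23 and 53 in THC, 49 and 77 in SR2, and 128 and 95 in Ctrl. The lowest summit pileup called as a peak was 5 and 7 in THC, 6 and 6 in SR2, and 6 and 6 in Ctrl. The lists held 11924 and 13229 peaks in THC, 14812 and 15190 in SR2, and 18383 and 16442 in Ctrl. When each list was limited to its 11924 strongest peaks by −log10 q, Galnt6 had 0 bp in all 6 libraries, Ctrl included, and the count of control-only genes among the 10 was 0 for both treatments. The part of signal depth in the Galnt6 pattern was not tested beyond that. In a bulk sample, fewer cells with the mark and less mark per cell cannot be told apart.

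The epithelial label of the organoids was checked on marker genes. The luminal markers Krt8, Krt18, Krt19, Epcam and Cdh1 had an H3K4me3 region in 5 of 5 cases in every library except THC replicate 1, where 3 did. Basal markers were marked for 0 and 2 of 4 genes in THC and for 2 of 4 in each SR2 and Ctrl library, with Acta2 and Trp63 at 0 in all 6. Their summed breadth was 0 and 2285 bp in THC, 2587 and 3994 bp in SR2, and 4181 and 4366 bp in Ctrl. Of the markers of fibroblasts, endothelium, blood and adipocytes, at most 1 per cell type was marked in a library. Col1a1 was marked in all 6 libraries (292 to 1142 bp) and Pparg in 5 (277 to 1323 bp). Kdr and Cd68 were each marked in 3 (up to 897 and 391 bp). Col1a2, Pdgfra, Dcn, Pecam1, Cdh5, Ptprc, Cd3e, Plin1 and Adipoq were at 0 in all 6. The summed luminal breadth was 3487 and 5803 bp in THC, 6236 and 6114 bp in SR2, and 7410 and 7088 bp in Ctrl. Both sums were thus lower in every treated library than in either Ctrl library. The total length of all H3K4me3 peaks was also lower, at 9.02 and 12.34 Mb in THC and 13.34 and 14.96 Mb in SR2. In Ctrl it was 18.6 and 16.17 Mb. The blood sum was lower in every treated library too. The fibroblast, endothelium and adipocyte sums were not, with fibroblasts at 1142 bp in SR2 replicate 2 against 1025 and 1045 bp in Ctrl. No change in cell composition is read from these sums, and their part in the Galnt6 result was not tested.

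Galnt12, a transferase whose human counterpart is known from colorectal cancer, was the other gene without a peak in THC. Its region lies at chr4:47091358-47093142, at the lower end of the gene (chr4:47091894-47123058), whose strand is not given in the tables used here. Peaks covered 0 and 0 bp in THC, 907 and 928 bp in SR2, and 1537 and 741 bp in Ctrl. SR2 and Ctrl overlapped, and both stood apart from THC. In SR2 replicate 2 the breadth came from a pair of peaks, of 432 and 496 bp, with a gap between them.

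As at Galnt6, the peaks at Galnt12 were low. The summit pileup was 18 and 11 in SR2 and 19 and 17 in Ctrl, and the −log10 q was 9.28 and 3.39 in SR2 and 10.9 and 8.33 in Ctrl. With the lists limited to equal length Galnt12 kept a peak in SR2 replicate 1 alone. When a −log10 q of 5 or more was required, it lost its peaks in SR2 replicate 2 and kept both Ctrl peaks.

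**Figure D3:**
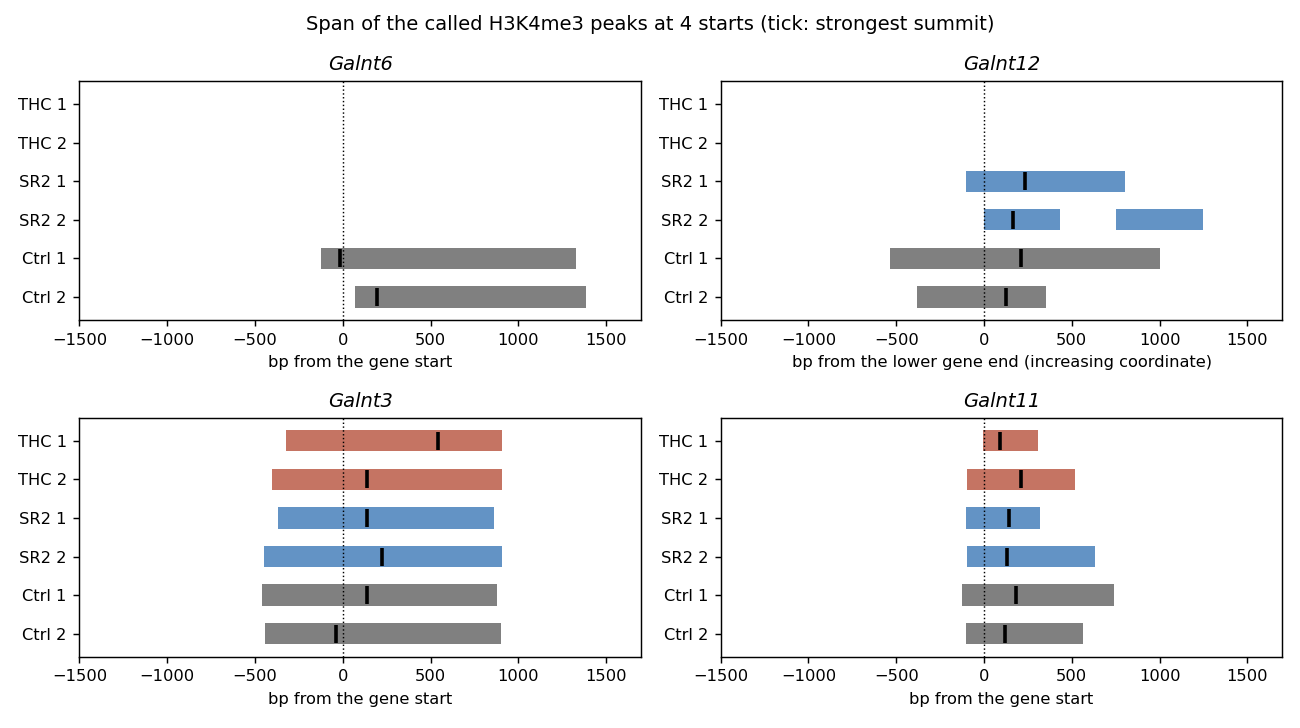
Extent of the called H3K4me3 peaks at Galnt6, Galnt12, Galnt3 and Galnt11 in bp from the start (x axis; for Galnt12 from the lower gene end), with THC, SR2 and Ctrl libraries from top to bottom and a tick at the strongest summit. Galnt3 keeps nearly the same edges in all 6 libraries, the Galnt11 peaks differ mainly at their downstream edge, and Galnt6 and Galnt12 have no bar in THC.

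Galnt1 and Galnt2 encode broadly expressed transferases that start O-glycans on many proteins. At Galnt1 (chr18:24205144-24206820) peaks covered 1275 and 1291 bp in THC, 1391 and 1345 bp in SR2, and 1564 and 1665 bp in Ctrl. The mean was 1283 ± 11.3 bp in THC, 1368 ± 32.5 bp in SR2 and 1614.5 ± 71.4 bp in Ctrl (SD, n = 2 each), and no groups overlapped. At Galnt2 (chr8:124231331-124232810) they covered 873 and 1158 bp in THC, 1035 and 1107 bp in SR2, and 1354 and 1233 bp in Ctrl. Both treated groups lay below Ctrl at Galnt2, and they overlapped each other.

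Galnt3 encodes the transferase known for protecting the phosphate hormone FGF23 from cleavage, and it is the closest relative of Galnt6. Peaks at Galnt3 (chr2:66123885-66125255) covered 1231 and 1308 bp in THC, 1228 and 1357 bp in SR2, and 1344 and 1346 bp in Ctrl. Galnt3 had the most even breadth of the 10, with 1228 bp in the lowest library and 1357 bp in the highest. Its summit pileup was less even, at 20 and 56 in THC, 52 and 72 in SR2, and 137 and 86 in Ctrl.

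Galnt4, Galnt7 and Galnt10 encode transferases that act wholly or in part on peptides that already carry GalNAc. Peaks at the Galnt4 region (chr10:99106744-99108578) covered 1784 and 1631 bp in THC, 1627 and 1758 bp in SR2, and 1795 and 1832 bp in Ctrl. That region also holds the start of Poc1b, so the mark cannot be assigned to Galnt4 alone. At Galnt7 (chr8:57651609-57653597), whose region is shared with the noncoding gene AW046200, they covered 1275 and 1743 bp in THC, 1873 and 1736 bp in SR2, and 1974 and 1953 bp in Ctrl. Galnt7 was the broadest of the 10 in both Ctrl libraries, at breadth percentiles 95.0 and 95.2.

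At Galnt10 (chr11:57644312-57646132) peaks covered 739 and 1365 bp in THC, 1422 and 1418 bp in SR2, and 1563 and 1509 bp in Ctrl. The low value of THC replicate 1 set the THC mean of 1052 ± 443 bp (SD, n = 2). In that library the Galnt10 peak had a summit pileup of 12 and a −log10 q of 4.57, and the Galnt2 peak a pileup of 12 and a −log10 q of 4.86, so a minimum of 5 removed both.

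Galnt11 encodes a transferase known in the kidney, where it acts on the endocytic receptor megalin. Peaks at its start (chr5:25222744-25223614) covered 312 and 613 bp in THC, 422 and 726 bp in SR2, and 871 and 664 bp in Ctrl. It was the narrowest marked region of the 10 in every library, Ctrl included, among genes with a peak, and SR2 and Ctrl overlapped. Its peaks were narrow and not weak: the −log10 q was 13.1 and 29.3 in THC, 19.7 and 28.5 in SR2, and 42.2 and 40.6 in Ctrl, and the fold enrichment reached 13.0 in Ctrl replicate 2.

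C1galt1, which makes core 1, had peaks of 910 and 1212 bp in THC, 1321 and 1220 bp in SR2, and 1310 and 1232 bp in Ctrl at chr6:7844434-7845838. SR2 and Ctrl overlapped, with means of 1270.5 ± 71.4 bp in SR2 and 1271 ± 55.2 bp in Ctrl (SD, n = 2 each). Its summit pileup was 34 and 62 in THC, 65 and 99 in SR2, and 147 and 121 in Ctrl, the highest of the 10 genes in every library.

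**Figure D4:**
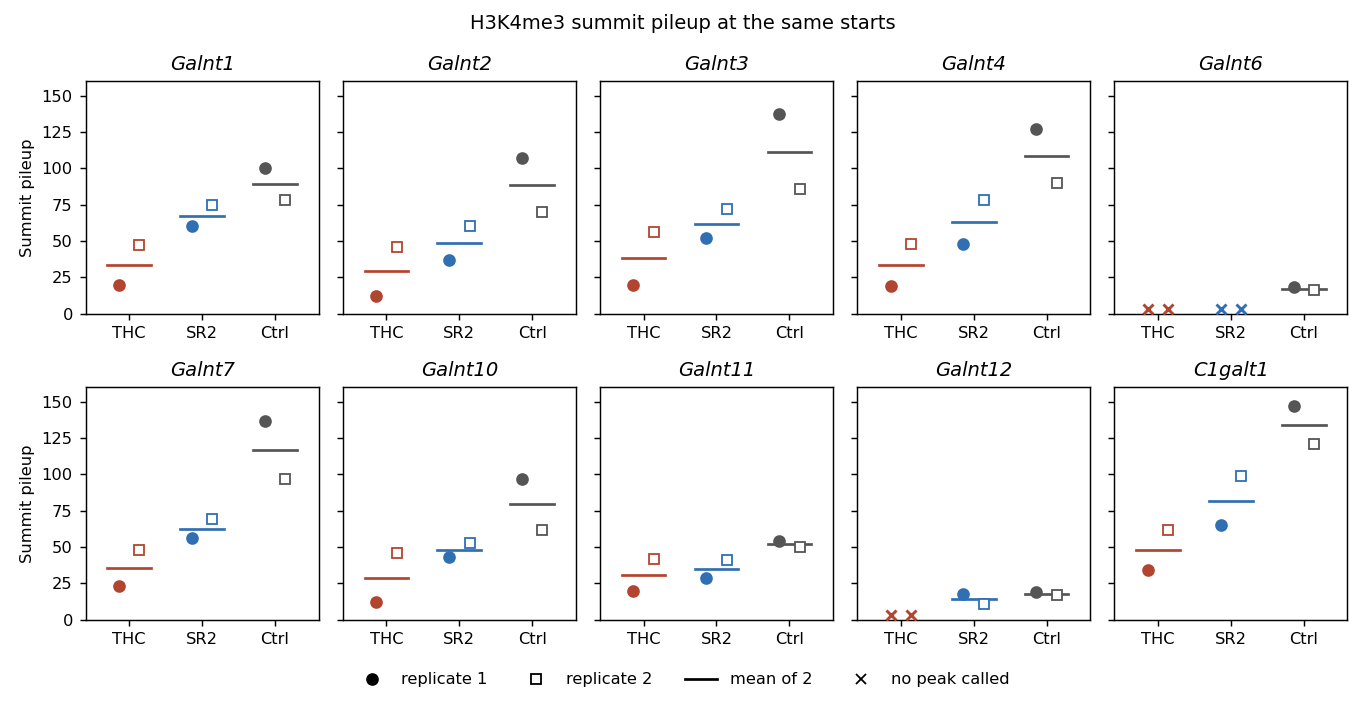
Summit pileup (y axis, fragments at the strongest summit) at the same starts by library in THC, SR2 and Ctrl, with replicate 1 as circles, replicate 2 as open squares, lines at the mean of 2 and crosses where no peak was called. In the 8 genes marked in all 6 libraries THC lies below Ctrl throughout, whereas Galnt6 (18 and 16) and Galnt12 (19 and 17) are low in Ctrl already. The median over all 10140 regions marked in all 6 libraries was also lower in THC (23 and 53) than in Ctrl (128 and 95).

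In raw breadth both THC libraries lay below both Ctrl libraries at 10 of the 10 genes, and both SR2 libraries below both Ctrl libraries at 6 of 10 (Galnt1, Galnt2, Galnt4, Galnt6, Galnt7 and Galnt10). Among regions at protein-coding starts marked in both Ctrl libraries, 85.6% did so for THC and 49.8% for SR2. Nothing is read from these counts, since the rule used these contrasts. None of the 10 genes lay above Ctrl in both THC or both SR2 libraries, against 0.0659% of those regions for THC and 1.69% for SR2.

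Breadth was set on a common scale as log2(covered bp + 200), with each library centred on its median over the regions marked in all 6. On that scale the 10 genes had a median difference of 0.05 for THC minus Ctrl, against −0.15 for all 15772 regions tested, and of −0.01 for SR2 minus Ctrl, against −0.03. Without centring these medians were −0.33, against −0.52, for THC and −0.15, against −0.17, for SR2, so the sign of the THC median depended on the centring. Galnt6 passed the minimum of 2 marked libraries through its Ctrl peaks alone. Leaving it out, the other 9 had medians of 0.07 for THC minus Ctrl and 0.03 for SR2 minus Ctrl. Of the 10 genes, 8 were marked in all 6 libraries, and the centring sets the median of such regions to 0 in each library. The 15772 regions also hold regions marked in fewer libraries, so the sets are unlike. The rule also used these contrasts, so nothing is read from these medians.

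THC and SR2 were compared with each other at the 9 genes other than Galnt6, a contrast that the rule did not use for them. No region of 15772 passed limma's moderated test at a Benjamini-Hochberg adjusted p of 0.05 (0% called); at an unadjusted p under 0.05 there were 290 wider and 1079 narrower regions in THC. Galnt12 differed by −2.24 on the log2 scale (SE 0.37, limma adjusted p = 0.318), lower in both THC libraries than in both SR2 libraries. Over the alternative settings its adjusted p ran from 0.0451, without THC replicate 2, to 0.805. The other 8 genes differed by −0.18 (Galnt10) to 0.25 (Galnt4), with limma adjusted p from 0.622 to 0.994. Without THC replicate 2 the Galnt4 difference was 0.46, with a limma adjusted p of 0.0451. Both of these values without THC replicate 2 rest on THC replicate 1 alone, the library with the lowest median pileup (23), which is assumed to vary like the other groups.

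In raw breadth both THC libraries lay below both SR2 libraries at 4 of the 9 genes marked in both SR2 libraries (Galnt1, Galnt10, Galnt12 and C1galt1), against 52.2% of regions at protein-coding starts. The other 5 overlapped, and none lay above SR2 in both THC libraries, against 0.727%.

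The remaining pathway was described from a list of 48 other genes, of which 47 were in the gene table. Of these, 26 had an H3K4me3 region at the start in at least 1 library, 23 in both Ctrl libraries and 18 in all 6. All 8 genes that supply nucleotide sugars were marked in all 6 libraries. Of the 10 other GalNAc transferase genes 3 had a region, and Galnt18 alone had it in all 6 libraries (753 and 1872 bp in THC, 1896 and 1741 bp in SR2, 1902 and 1957 bp in Ctrl). The genes described above were chosen with H3K4me3 values known, so these other transferases are not compared with them.

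C1galt1c1, the core 1 chaperone gene, was marked in every library, with 502 and 712 bp in THC, 744 and 756 bp in SR2, and 945 and 848 bp in Ctrl. Of 5 genes that branch or extend the cores, Gcnt1, Gcnt4 and B3gnt3 were marked in all 6 libraries. B3gnt3, which extends core 1, had 578 and 806 bp in THC, 854 and 1182 bp in SR2, and 1911 and 1509 bp in Ctrl. The B3gnt3 groups did not overlap, and its log2 difference was −0.72 for THC minus Ctrl (SE 0.14, limma adjusted p = 0.128) and −0.52 for SR2 minus Ctrl (SE 0.14, limma adjusted p = 0.136). Neither passed the threshold, and the THC difference did so under 3 other settings, with limma adjusted p of 0.0355 to 0.0471. These were a pseudocount of 50 bp, no centring, and only the 4 libraries compared. Under them limma called 1417 of 15772, 1914 of 15772 and 1929 of 14873 regions, nearly all narrower, so the calls are not particular to B3gnt3.

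Of 6 sialyltransferase genes, which cap O-glycans, 5 had a region and 2 had it in all 6 libraries. St3gal1, which sialylates core 1, was the broadest (1260 and 1694 bp in THC, 1758 and 1670 bp in SR2, 1880 and 1817 bp in Ctrl). St6galnac2, which adds sialic acid to the GalNAc, had 0 and 0 bp in THC, 0 and 0 bp in SR2, and 699 and 469 bp in Ctrl. It was the only gene of the list without a peak in any treated library and with peaks in both Ctrl libraries. It passed the minimum of 2 marked libraries through its Ctrl peaks alone, so no test of its difference is given.

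Against Ctrl, 3 genes of the list were control-only for THC (Galnt14, St6galnac2 and Cd34) and 1 for SR2 (St6galnac2), out of 23 marked in both Ctrl libraries, beside 6% for THC and 1.7% for SR2 of regions at protein-coding starts. Galnt14 had 0 and 0 bp in THC, 0 and 434 bp in SR2, and 364 and 687 bp in Ctrl. Cd34, a sialomucin of blood and vessel cells, had 0 and 0 bp in THC, 0 and 530 bp in SR2, and 639 and 826 bp in Ctrl.

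Of 17 mucin and mucin-like acceptor genes in the gene table, 6 had a region at the start. Cd44, a cell surface receptor that carries O-glycans, was the broadest (1074 and 2073 bp in THC, 2649 and 2174 bp in SR2, 2536 and 2772 bp in Ctrl). Muc1, named after its values were seen, had 0 and 304 bp in THC, 504 and 908 bp in SR2, and 910 and 1340 bp in Ctrl. The Muc1 region is shared with Mir92b and LOC115489723. The gel-forming mucin genes Muc2, Muc5ac, Muc5b and Muc6 had no H3K4me3 region in any library.

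For the 24 pathway genes that could be tested, limma called 0 in every contrast. At an unadjusted p under 0.05 there were 1 wider and 6 narrower for THC minus Ctrl, 0 wider and 2 narrower for SR2 minus Ctrl, and 0 wider and 3 narrower for THC minus SR2. St6galnac2 is among the 24 genes and is 1 of the narrower genes in both contrasts against Ctrl. It entered through its Ctrl peaks alone. Galnt14 and Cd34 would also not have reached 2 marked libraries without their Ctrl peaks, and Cd34 is 1 of the narrower genes for THC minus Ctrl. Nothing is therefore read from these counts against Ctrl or from the medians that follow. The median log2 difference of the 24 genes was −0.20 for THC minus Ctrl and 0.02 for SR2 minus Ctrl, beside −0.15 and −0.03 for all regions. Of the 24 genes, 18 were marked in all 6 libraries, against 10140 of the 15772 regions, so these sets are unlike. Over all 15772 regions limma also called 0 (0%) in both contrasts against Ctrl. At an unadjusted p under 0.05 it gave 695 wider and 2903 narrower for THC, and 103 wider and 1405 narrower for SR2. These splits depended on the scaling: without centring they were 11 wider and 5938 narrower for THC and 34 and 1633 for SR2, and with quantile normalization 1108 wider and 1048 narrower for THC and 265 and 659 for SR2.

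The genes whose breadth over the 6 libraries was most like that of Galnt6 were found by Euclidean distance on the log2 scale. They were Dsc3 (0.35), which encodes a desmosomal cadherin, Igfbp3 (0.54), which encodes a binding protein of insulin-like growth factors, Ly6d (0.66), which encodes a surface protein, and Slc5a1 (0.70), which encodes a glucose transporter. Each had 0 bp in all 4 treated libraries. The Ctrl breadth was 1117 and 1203 bp for Dsc3, 1464 and 839 bp for Igfbp3, 881 and 1088 bp for Ly6d, and 935 and 918 bp for Slc5a1. None was as broad on average as Galnt6.

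For H3K27me3, which the choice of genes did not use, 1 peak was called over the 10 genes and their 5 kb flanks in the 6 libraries. By library, 0.137% to 7.92% of all protein-coding genes had a peak, so few peaks at 10 genes are no trait of these genes. The single peak was at Galnt3 in THC replicate 1, over 372 bp at chr2:66124650-66125021, across the annotated start, with a fold enrichment of 3.54 and a −log10 q of 1.64. No peak lay at any of the 10 genes in THC replicate 2, SR2 or Ctrl. Galnt6 had no H3K27me3 peak in the libraries where its H3K4me3 peak was missing.

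The H3K27me3 lists were short, so the lack of a peak does not show that the mark was absent. They held 984 and 70 peaks in THC, 840 and 157 in SR2, and 2712 and 387 in Ctrl. Of 21887 protein-coding genes, 3.07% and 0.137% had a peak in THC, 2.96% and 0.507% in SR2, and 7.92% and 1.11% in Ctrl. Of the 47 other pathway genes, 2 and 0 had a peak in THC (Muc5ac and Muc6), 1 and 0 in SR2 (Gne), and 3 and 0 in Ctrl (Galntl6, Nans and Cd24a).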

How the data were processed

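CUT&Tag libraries of H3K4me3 and H3K27me3 came from 12 samples, 2 per mark and treatment. The submitters' processing notes give the build mm10 and the tools MACS3, bedtools, SAMtools 1.8, Picard, deepTools, Bowtie2 2.5.4 and cutadapt 5.2, with no role or order. The deposited peak lists, 1 per library, give peak positions, a score, a fold enrichment (a ratio within 1 library), and −log10 p and −log10 q per peak. These are the authors' values and served only inside their own list. Read totals are not part of a peak list; the H3K4me3 summit pileup was recovered from the deposited fold and −log10 p (100% of pileups whole within a tolerance of 0.02), and for H3K27me3 the depth is unknown.

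H3K4me3 peaks on chromosomes 1 to 19, X and Y that shared at least 1 bp were merged into 24596 regions. A gene was given the region with the most covered bp, averaged over the 6 libraries, within 1 kb of an annotated start. For genes absent from the RefSeq promoter table (Galnt1, Galnt2, Galnt4 and Galnt12 among the 10) either gene end was used. Exons and introns were not analysed here. Breadth was tested with limma 3.58.1 in R 4.3.3, with trend, on log2(covered bp + 200) over all 6 libraries at once, for the 15772 regions with a peak in 2 or more of them, after centring on the median of the 10140 regions marked in all 6, with Benjamini-Hochberg adjustment at 0.05. Where a library has no peak, the added 200 bp shrinks the difference, and signal too low to be called counts as 0 bp. The differences can therefore understate or overstate a change there. Control-only regions had a peak in each Ctrl library and none in the libraries of 1 treatment.

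The genes and lists were chosen with earlier results of these data known. Beside the 10 genes, pathway genes were named if control-only, treatment-only or called by limma, or if broadest in Ctrl within their role. Some genes that these rules name are not reported here. A chi-square test of summit pileups between replicates gave a statistic over its degrees of freedom of 0.81 in THC, 0.98 in SR2 and 1.02 in Ctrl. These lay within the 0.739 to 1.39 of pairs of different groups. The statistic cannot tell whether replicates were independent, and each group was counted as n = 2. The replicate number is also the labels' batch number and so pairs the samples; same-numbered deviations correlated at 0.0479 for THC and SR2, 0.0344 for THC and Ctrl, and −0.0619 for SR2 and Ctrl. Alternatives covered the block, pseudocount, centring, region filter, list length, peak strength, minimum breadth and leaving out each library.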

Additional observations from a re-analysis of the deposited data

Results flagged for a closer look

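An H3K27me3 peak of 372 bp lay across the Galnt3 start in THC replicate 1, in data outside the H3K4me3 measurement, where no other library had one at any of the 10 genes. Its −log10 q was 1.64, and THC replicate 1 had 984 H3K27me3 peaks against 70 in THC replicate 2. An H3K4me3 peak of 373 bp lay inside Galnt12 in THC replicate 2, 5487 bp from the gene end used as the start (chr4:47097381-47097753), in the group that had no peak at that end. Its −log10 q was 2.10 and its summit pileup 8, and no other library had it. Neither was tested.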

How the results depend on the processing

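With the replicate block, limma called 0 regions in each contrast, as it did without it, and the block changed no call. For THC minus Ctrl the count was 1417 with a pseudocount of 50 bp, 1914 without centring, 39 for regions marked in at least 1 library, 4 with the same number of peaks per list and 1929 from only the 4 libraries compared; leaving out 1 library gave 0 to 2183, the highest without THC replicate 2. For SR2 minus Ctrl it was 1059 with a pseudocount of 50 bp and 994 without centring, and 0 under each left-out library. For THC minus SR2 leaving out 1 library gave 0 to 1189, the highest without THC replicate 2. Control-only regions for THC numbered 347 with the same number of peaks per list and 2744 to 6063 with 1 library left out (4087 without Ctrl replicate 1, 6063 without Ctrl replicate 2, 4224 without THC replicate 2). Control-only regions for SR2 numbered 140 with the same number of peaks per list, 679 with at least 500 bp covered and 1380 to 4133 with 1 library left out (2504 without Ctrl replicate 1, 4133 without Ctrl replicate 2, 2411 without SR2 replicate 2). Control-only genes among the 10 numbered 0 for THC and 0 for SR2 with the same number of peaks per list, and 2 and 1 with at least 500 bp covered. They also numbered 2 and 1 under each left-out library. Leaving out a library can only keep or raise a control-only count, so nothing is read from that. The H3K27me3 count at the 10 genes was 0 with a −log10 q of at least 2 and 0 to 1 with 1 library left out, the lowest without THC replicate 1. The causes were not tested. Medians over lists changed sign with the scaling: without centring that of the 10 genes for THC minus Ctrl was −0.33, against 0.05 with it, and those of the 9 genes without Galnt6 were −0.31 for THC and −0.11 for SR2 against Ctrl, against 0.07 and 0.03 with it. That of the other pathway genes for SR2 minus Ctrl was −0.12, against 0.02. Over all regions the THC minus Ctrl median was 0.07 with quantile normalization, against −0.15 with centring. Of the values of single genes, 131 kept their side of the threshold or moved by less than the replicate SD, 18 moved further and 9 passed the threshold. Those 9 include values of St6galnac2, which entered through its Ctrl peaks alone, so nothing is read from the St6galnac2 values. No value could be had for Galnt12 or St6galnac2 where the filter on marked libraries dropped the region. The lowest summit pileup called was 5 to 7 fragments, which limits what a missing peak shows.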

Other observations

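Away from the starts, 11 further H3K4me3 peaks lay in the 10 genes or beside them, more than 1 kb from the start, and each was called in a single library. Of these, 2 were in THC, 2 in SR2 and 7 in Ctrl. They were narrow, between 233 and 513 bp, and 10 of the 11 had a summit pileup of 10 or less. Galnt2 and Galnt10 had 3 each, Galnt11 had 2, and Galnt7, Galnt12 and C1galt1 had 1 each. Galnt6 had none, so no library showed an H3K4me3 peak elsewhere in Galnt6. The strongest by pileup lay near C1galt1 in Ctrl replicate 1, 2753 bp from its start, with 38.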
